A study of Mus musculus with 12 samples.

Results

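The transcripts described here are those of the interleukins, their receptors and the colony-stimulating factors, the signaling proteins through which immune cells, and in the brain also glia and neurons, address one another. They were selected on names: every gene whose symbol in the array's gene table begins with Il followed by a digit, together with Csf1, Csf2 and Csf3. That gave 79 of the 19938 genes that had a transcript cluster of their own, a transcript cluster being a set of probes read out together as 1 transcript. For a gene with several clusters, the one kept was chosen by its mean intensity over all 12 arrays, so these means are given as a description and the difference between the groups was not used in the choice. The 79 genes hold 83 clusters with 1 gene symbol, and the 3 clusters that carry a second symbol (Il22 with Iltifb, and Il4i1 with Il4i1b) were not used.

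Septum RNA of 6 lactating and 6 virgin female mice was measured, 1 array per mouse, in a line bred for high maternal aggression from outbred hsd:ICR stock. Lactating mice were on postpartum days 6 to 8 and had lived with a male for 2 weeks. The virgin mice, of matched age, had lived with other females for the same time. Once the males were removed, the mice of both groups were housed singly. All mice were about 70 days old in the study's methods and ate the same breeder chow. The virgin mice were in estrus, diestrus I or diestrus II, and which mouse was in which stage is not given. The sample labels name a punch of the lateral septum and the methods name the whole septum. All 8 listed markers of septal and GABA neurons lay above the median intensity of the array, and none of them differed between the groups at an unadjusted P under 0.05.

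Interleukins are small secreted proteins that bind receptors built from several chains, and many chains are shared between ligands. Receptors of the IL-2, IL-3, IL-6, IL-10 and IL-12 groups signal through Janus kinases and STAT factors, whereas those of the IL-1 and IL-17 families signal through adaptor proteins to NF-kappaB. In the brain, microglia depend on the receptor Csf1r, whose ligands are CSF-1 (Csf1) and IL-34 (Il34), the latter made largely by neurons. GM-CSF (Csf2) drives the growth and activation of macrophages, granulocytes and dendritic cells.

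In lactating mice 10 of the 79 genes were lower and 1 was higher at an unadjusted P under 0.05 (limma on log2 intensities, the threshold meant throughout). The P values printed for single genes are those of the exact permutation test on mean intensity, two-sided, unless limma is named. The lower genes were Il1f8, Csf2, Il27ra, Il1bos, Il6, Il20rb, Il17b, Il4ra, Il5ra and Il22ra1, and the higher gene was Il34. The lower genes made up 12.7% of the members, and 4.69% of all 35556 clusters were lower by the same rule. The higher gene made up 1.27%, beside 3.26% of all clusters. No member, and 0% of all clusters, passed a Benjamini-Hochberg adjusted P under 0.05 (limma), and the smallest adjusted value among the members was 0.619. At an unadjusted P under 0.0025, Il1f8 and Csf2 were lower and no member was higher, where 0.177% of all clusters were lower and 0.16% higher. The same 2 genes were the only members whose groups did not overlap, which is 2.53% of the members beside 0.186% of all clusters that lay wholly lower and 0.208% wholly higher. The count of lower members was 6 without lactating mouse 3 and 17 without virgin mouse 4, when 3.04% and 5.7% of all clusters were lower. The count of higher members was 0 without any one of lactating mice 2, 4 or 5 or virgin mouse 5, and 2 without lactating mouse 1. With these mice left out in that order, 2.9%, 3.02%, 3.25%, 3.11% and 3.75% of all clusters were higher. Without lactating mouse 4, Il27ra and Il5ra did not overlap either. The share of all clusters without overlap was not counted with single mice left out.

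**Figure D1:**
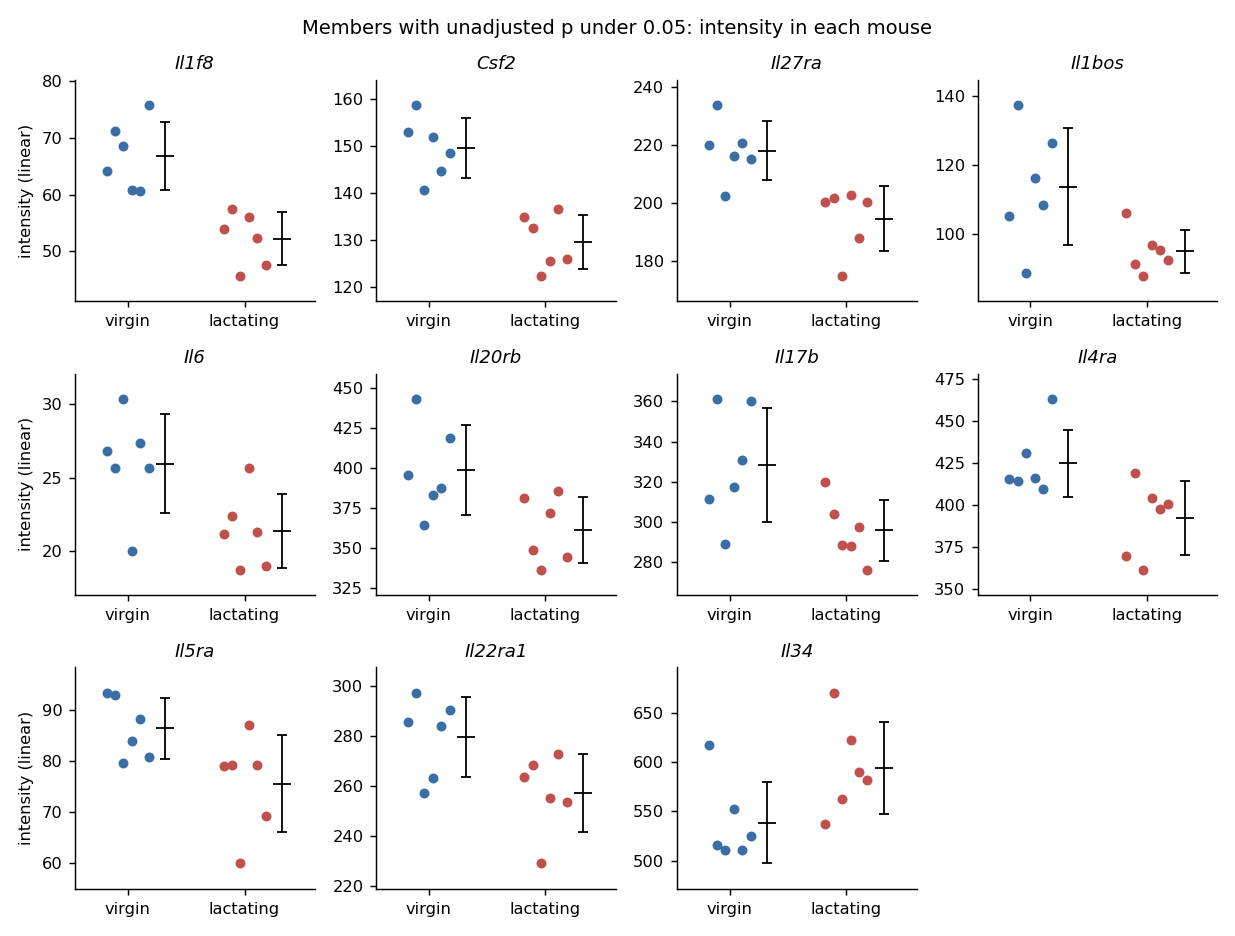
Intensity (linear, y axis, which does not start at 0) of the 11 genes with an unadjusted P under 0.05 in each of 6 virgin (blue) and 6 lactating (red) mice, with the group mean and SD in black. The groups do not overlap for Il1f8 and Csf2 and overlap for the other 9 genes, and Il34 is the only gene of the 11 with the higher mean in lactating mice.

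The 250 bases upstream of the RefSeq start are shown for Csf2 and Il1f8, because these were the 2 members whose groups did not overlap. The windows are those of build GRCm38.p6, Csf2 on the minus strand at chr11:54249900-54250149 and Il1f8 on the plus strand at chr2:24152922-24153171, each written 5′ to 3′ on the strand of the gene. Capitals mark matches, on either strand, to 4 motifs: the core of NFAT sites (GGAAA), the AP-1 site (TGANTCA), the GAS element bound by STAT proteins (TTCNNNGAA) and the TATA box (TATAAA).
Csf2: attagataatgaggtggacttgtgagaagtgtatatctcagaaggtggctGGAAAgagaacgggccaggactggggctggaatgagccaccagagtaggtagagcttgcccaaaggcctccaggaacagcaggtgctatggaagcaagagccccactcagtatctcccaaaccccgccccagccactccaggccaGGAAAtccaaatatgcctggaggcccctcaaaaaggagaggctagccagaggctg
Il1f8: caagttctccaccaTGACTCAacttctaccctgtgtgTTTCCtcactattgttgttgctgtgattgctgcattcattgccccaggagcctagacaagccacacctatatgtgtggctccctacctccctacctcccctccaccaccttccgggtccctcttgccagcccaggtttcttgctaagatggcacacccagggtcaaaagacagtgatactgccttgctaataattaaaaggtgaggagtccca
The Csf2 window holds 2 matches to the NFAT core, 200 and 55 bases before the start, and no match to the other motifs. The Il1f8 window holds 1 match to the NFAT core on the opposite strand, 213 bases before the start, and 1 match to the AP-1 site, 236 bases before it, which reads as a match on both strands, and none of its matches overlap. Among all 32851 RefSeq promoters, 55.6% held the NFAT core in this window, 6.75% the AP-1 site, 7.02% the GAS element and 12.4% the TATA box. Of the 61 members with a promoter in the table, 41 held the NFAT core, 12 the AP-1 site, 7 the GAS element and 11 the TATA box. A match describes letters in the window and was not tested as a site.

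The IL-3, IL-5 and GM-CSF group shares a common beta receptor chain. Csf2 intensity ran from 122 to 137 with a median of 129 in lactating mice, and from 141 to 159 with a median of 150 in virgin mice. Every lactating mouse thus lay below every virgin mouse. The means were 129.6 ± 5.75 and 149.6 ± 6.42 (SD, n = 6 each), 13.4% lower in lactating mice, a log2 difference of -0.19 ± 0.04 (SE; limma P = 0.000384, exact P = 0.00216, the smallest that 6 against 6 mice allow). Csf2 is among the genes that the study listed on these same arrays, so its difference is not independent of that choice. Il5ra, the chain that binds IL-5, ranged from 60.0 to 86.9 with a median of 79.02 in lactating mice and from 79.5 to 93.3 with a median of 86.0 in virgin mice. Of the lactating mice, 5 lay below every virgin mouse, and lactating mouse 3 had the lowest value (log2 difference -0.17 ± 0.07, limma P = 0.0313, exact P = 0.0346). Il5ra did not pass the limma threshold on linear intensities or with a variance trend, nor without any one of lactating mice 3 or 6 or virgin mice 1, 2 or 5, and without lactating mouse 3 its difference was -0.11.

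The other 3 genes of the group did not pass the threshold. Il3ra, the IL-3 receptor chain, had means of 632 ± 48.2 and 681 ± 43.6 in lactating and virgin mice (log2 difference -0.11 ± 0.06, exact P = 0.102). The ligands Il3 and Il5 differed by -0.03 (exact P = 0.602) and 0.10 (exact P = 0.431). Il3 and Csf2 are neighbors on chromosome 11, with Il4, Il13 and Il5 nearby. Of these 5 ligand genes of T helper cells, Csf2 alone passed the threshold, and whether its difference exceeded those of its neighbors was not tested. Outside the naming rule, the receptor chains Csf2ra (-0.10, exact P = 0.119) and Csf2rb (-0.11, exact P = 0.45), which bind GM-CSF, did not pass the threshold either.

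Among the other colony-stimulating factors, Il34 was higher in lactating mice. Its intensity ran from 537 to 670 with a median of 586 in lactating mice and from 510 to 617 with a median of 521 in virgin mice. The ranges overlapped, since virgin mouse 1 had 617 and lactating mouse 1 had 537. The means were 594 ± 46.8 and 538.5 ± 41.4 (log2 difference 0.14 ± 0.06, 95% interval 0.01 to 0.27, limma P = 0.0402, exact P = 0.0563). The call was lost without any one of lactating mice 2, 4, 5 or 6 or virgin mice 2, 3, 5 or 6, when the difference was between 0.10 and 0.14. Csf1, the other ligand of Csf1r, had 655 ± 63.95 and 680 ± 79.8 (log2 difference -0.05, interval -0.23 to 0.12, exact P = 0.567). The receptor itself, Csf1r, differed by -0.03 (exact P = 0.723). Csf3, which encodes the granulocyte factor G-CSF, had 133.9 ± 9.08 and 133.6 ± 6.00, a difference of 0.00 with an interval of -0.10 to 0.10 (exact P = 0.963).

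Of the 10 genes listed as ligands of the IL-1 family, Il1f8 was lower and 9 did not pass the threshold. Il1f8, now called Il36b, encodes an IL-36 cytokine best known from skin. Its intensity ran from 45.7 to 57.5 with a median of 53.1 in lactating mice and from 60.7 to 75.7 with a median of 66.4 in virgin mice. As for Csf2, the groups did not overlap. The means were 52.2 ± 4.68 and 66.9 ± 6.02, 21.9% lower in lactating mice (log2 difference -0.28 ± 0.06, limma P = 0.000349, exact P = 0.00216). Il1f8 lies on chromosome 2 beside Il1f9, Il1f6, Il1f5, Il1f10 and Il1rn, and the difference of these 5 neighbors was between -0.06 and -0.15 with no call.

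The inflammatory ligand Il1b ranged from 102.5 to 120 with a median of 114 in lactating mice and from 111 to 151 with a median of 120 in virgin mice, and the difference of -0.13 ± 0.07 did not pass the threshold (exact P = 0.126). Il1bos, a noncoding gene on the strand opposite to Il1b, was lower. It ranged from 87.8 to 105.9 with a median of 93.7 in lactating mice and from 88.7 to 137 with a median of 112 in virgin mice (log2 difference -0.22 ± 0.08, limma P = 0.0174, exact P = 0.0325). The ranges overlapped, with virgin mouse 3 at the low end of its group and the other 5 virgin mice between 105 and 137. The methods describe a labeled target of single-stranded cDNA made from cRNA, and overlap of the probes of Il1b and Il1bos was not checked. Il1a differed by -0.17 with a wide interval of -0.46 to 0.12, and virgin mouse 6 had 142.8 where the other virgin mice had at most 85.6. Il33, an alarm signal released from the nucleus of damaged cells and abundant in glia, had 844.5 ± 116 and 845.6 ± 96.4 (difference -0.01, interval -0.21 to 0.20, exact P = 0.985). Il18 differed by 0.04 (exact P = 0.429).

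None of the 8 IL-1 family receptors and binding proteins passed the threshold. The shared receptor chain Il1rap had 480 ± 39.6 in lactating and 435 ± 44.1 in virgin mice, the highest positive difference of all members (0.14 ± 0.07, exact P = 0.0996). Il1rapl1, a synaptic relative of these receptors, differed by 0.05 (exact P = 0.439), and Il18bp, which binds and blocks IL-18, differed by 0.03 (exact P = 0.355). Among the genes of IL-17 signaling, which defends epithelia and recruits neutrophils, 1 of 6 ligands and none of 5 receptors passed. Il17b ranged from 276 to 320 with a median of 293 in lactating mice and from 289 to 361 with a median of 324 in virgin mice. The groups overlapped, 3 lactating mice lying below every virgin mouse (log2 difference -0.14 ± 0.06, limma P = 0.0268, exact P = 0.0368). Its call was lost without any one of lactating mice 4 or 6 or virgin mice 2 or 6, when the difference was between -0.11 and -0.13. Il17d differed by 0.04 (exact P = 0.214), and the receptors Il17rc and Il17rd by -0.05 (exact P = 0.275) and 0.00 (exact P = 0.963).

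In the IL-6 and IL-12 families, 1 of 7 ligands and 1 of 7 receptors were lower. Il27ra, the chain specific to IL-27, which restrains T cells, ranged from 175 to 203 with a median of 200.4 in lactating mice and from 202.4 to 234 with a median of 218 in virgin mice. The groups overlapped only at their edges, and 5 of 6 lactating mice lay below every virgin mouse (log2 difference -0.15 ± 0.04, limma P = 0.00461, exact P = 0.00433). Its ligand Il27 differed by -0.09 (exact P = 0.284). Il6, the ligand that gives the family its name, ranged from 18.8 to 25.7 with a median of 21.2 in lactating mice and from 20.0 to 30.4 with a median of 26.2 in virgin mice. These values are close to the 16 added before the log2, and the difference of -0.17 ± 0.06 (limma P = 0.0186, exact P = 0.0346) became -0.28 on linear intensities and -0.08 when 64 was added, in both cases without passing the limma threshold, which it also missed with a variance trend. Il6st, the gp130 chain shared by the receptors of IL-6, IL-11 and IL-27, had 2013 ± 148 and 1947 ± 60.7 (difference 0.05, exact P = 0.327). The IL-6 receptor Il6ra differed by -0.03 (exact P = 0.379), and the ligand Il31 by -0.06 (exact P = 0.403).

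Of the 6 receptor genes of the IL-10 family, 2 were lower and all 6 differences were negative, as were those of 65 of the 79 members. Il20rb, a chain of the receptors for IL-19, IL-20 and IL-24, ranged from 337 to 386 with a median of 360 in lactating mice and from 365 to 443 with a median of 392 in virgin mice. The groups overlapped, 3 lactating mice lying below every virgin mouse (log2 difference -0.14 ± 0.05, limma P = 0.022, exact P = 0.0281). Without lactating mouse 3 the call was lost (-0.12). Its other clusters gave -0.09 (exact P = 0.0411) and -0.10 (exact P = 0.115). Il22ra1, the IL-22 receptor chain, ranged from 229 to 273 with a median of 259 and from 257 to 297 with a median of 285 (difference -0.11 ± 0.05, limma P = 0.0373, exact P = 0.0346). The call of Il22ra1 was lost when each array's median was subtracted (-0.09), under quantile and cyclic loess normalization, with the mean of both its clusters (-0.08), and without any one of lactating mice 3, 4 or 6 or virgin mice 1, 2, 5 or 6. Its other cluster differed by -0.04 (exact P = 0.63). Just outside the limma threshold, Il10ra differed by -0.13 (exact P = 0.0368) and Il20ra by -0.16 (exact P = 0.0801). For Il10ra, virgin mouse 6 had 246 and the other virgin mice had at most 201. Il10rb differed by -0.04 (exact P = 0.446).

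None of the 4 ligands of this family passed. Il10, which dampens inflammation, ranged from 122 to 156 with a median of 144 in lactating mice and from 124 to 146 with a median of 130 in virgin mice, a difference of 0.10 ± 0.06 (exact P = 0.108). Under cyclic loess normalization, which removes differences that depend on intensity, it was 0.15 and passed the limma threshold, as it also did with quantile normalization (0.14) and with each array's median subtracted (0.13). Il19 and Il24 differed by -0.12 (exact P = 0.126) and -0.06 (exact P = 0.548).

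Among the genes of the common gamma chain group, which governs the growth of lymphocytes, none of 6 ligands and 1 of 7 receptors passed. Il4ra, the chain that serves both IL-4 and IL-13, ranged from 361.5 to 419 with a median of 399 in lactating mice and from 409 to 463 with a median of 416 in virgin mice. In all, 5 of 6 lactating mice lay below every virgin mouse, and lactating mouse 2 had 419 (log2 difference -0.11 ± 0.05, limma P = 0.0274, exact P = 0.013). The call was lost when each array's median was subtracted (-0.09), and without any one of lactating mice 1 and 3 or virgin mouse 6 (-0.09 to -0.10). Il2ra, Il2 and Il9 differed by -0.08 (exact P = 0.227), -0.10 (exact P = 0.0823) and -0.09 (exact P = 0.123). IL-13, the other ligand of Il4ra, and its receptor chain Il13ra1 differed by -0.10 (exact P = 0.279) and -0.02 (exact P = 0.686), and Il16, a chemoattractant that is no relative of the other interleukins, by 0.04 (exact P = 0.66).

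**Figure D2:**
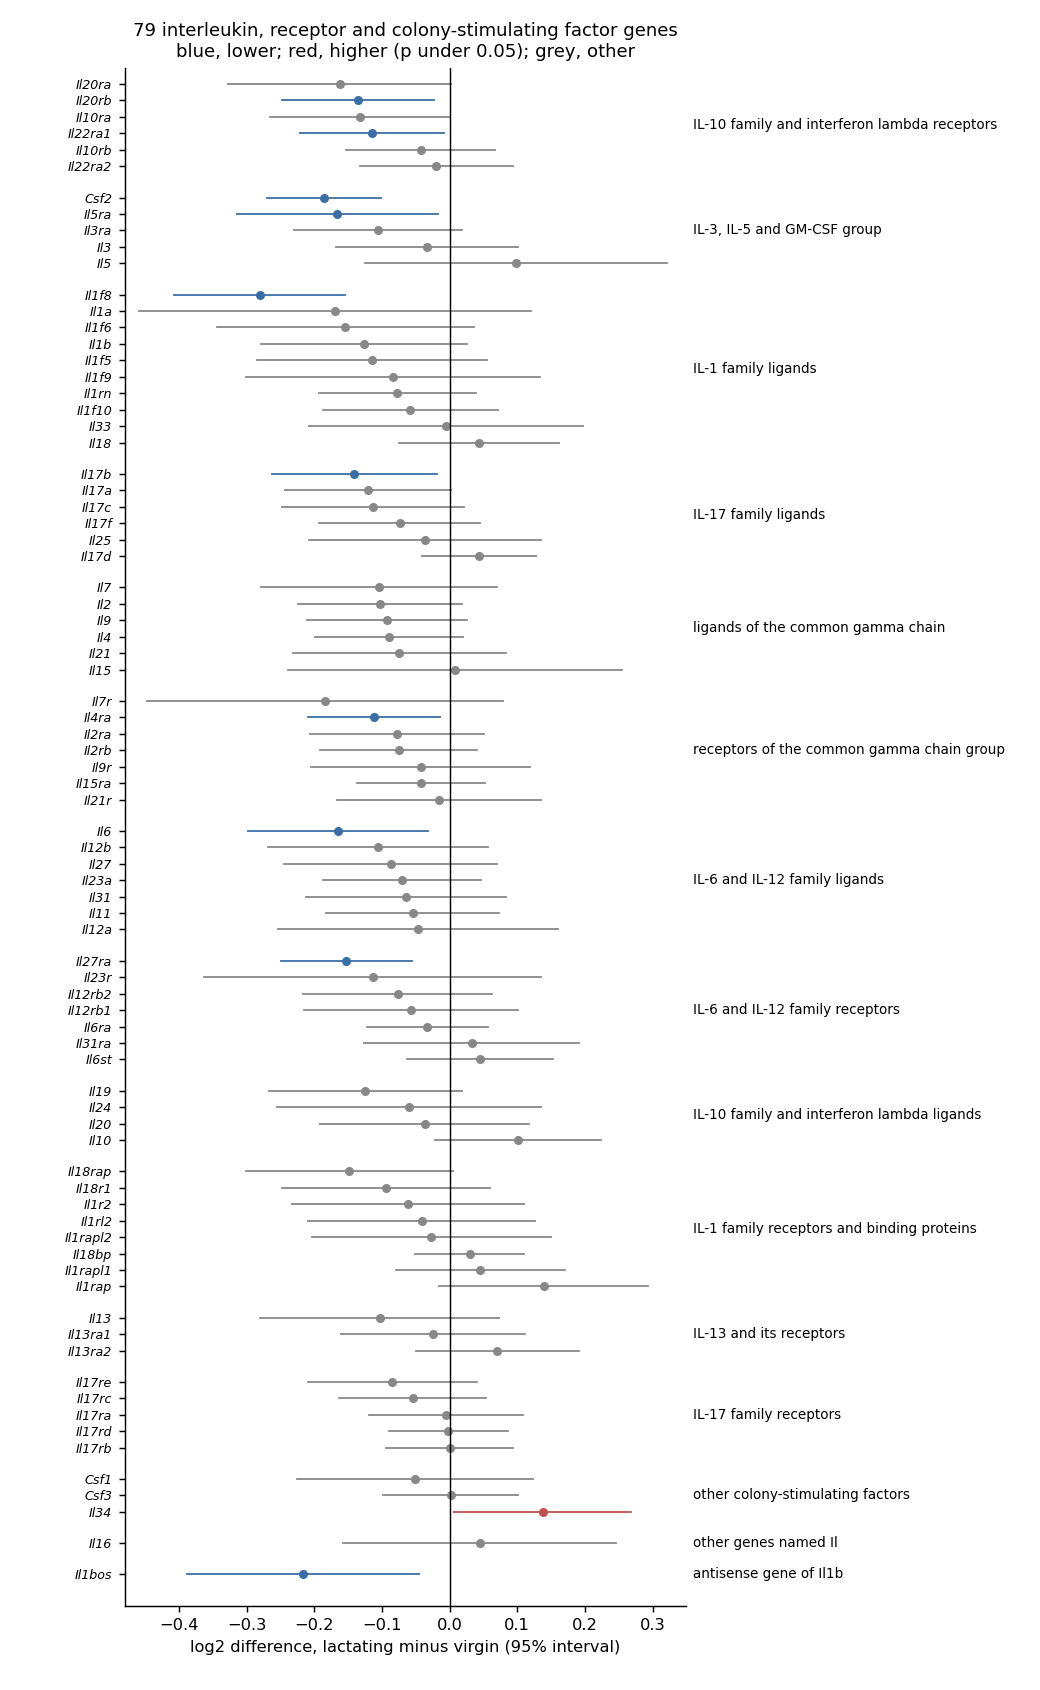
Log2 difference, lactating minus virgin, with its 95% interval (x axis) for each of the 79 genes, grouped by role, with lower genes in blue, the higher gene in red and all others in grey. Of the 79 points 65 lie left of zero, and the 2 points farthest from it on the left are Il1f8 and Il1bos.

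By kind, 4 of the 41 ligands were lower and 1 was higher, and 5 of the 37 receptor chains and binding proteins were lower. The remaining lower gene was Il1bos. Beside these counts, 4.69% of all clusters were lower and 3.26% higher. The median difference was -0.07 over the ligands and -0.05 over the receptors. Over all 79 members the difference was negative for 65 and positive for 14, with a median of -0.07, beside a median of -0.01 over all clusters.

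The members lay mostly among the dimmer clusters, and the dimmer clusters as a whole were lower in lactating mice. The median of all cluster means was 331, and 60 members lay at or below it. In this range the median difference of all clusters was -0.05, and 7.19% of them were lower and 1.61% higher. The members there had a median of -0.08, and 8 of the 60, or 13.3%, were lower and none was higher. Il1f8 and Csf2, with means of 59.5 and 139.6 over all 12 arrays, were among these 8. Above 331, where the median of all clusters was 0.02, 2.19% were lower and 4.92% higher. The 19 members there had a median of -0.03, with Il20rb and Il4ra lower (10.5%) and Il34 higher (5.26%). With cyclic loess, 9 members were lower and 3 higher (Il34, Il10 and Il13ra2), the median was -0.03, and 54 members were negative, beside 3.18% of all clusters lower and 3.77% higher. With each array's median subtracted the split was 8 lower and 3 higher (Il34, Il10 and Il1rap), beside 2.79% of all clusters lower and 5.7% higher. A dim cluster may hold little RNA of its gene or none, and the 12 arrays limit the precision. In bulk septum, fewer cells that make a transcript and less of it per cell cannot be told apart.

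**Figure D3:**
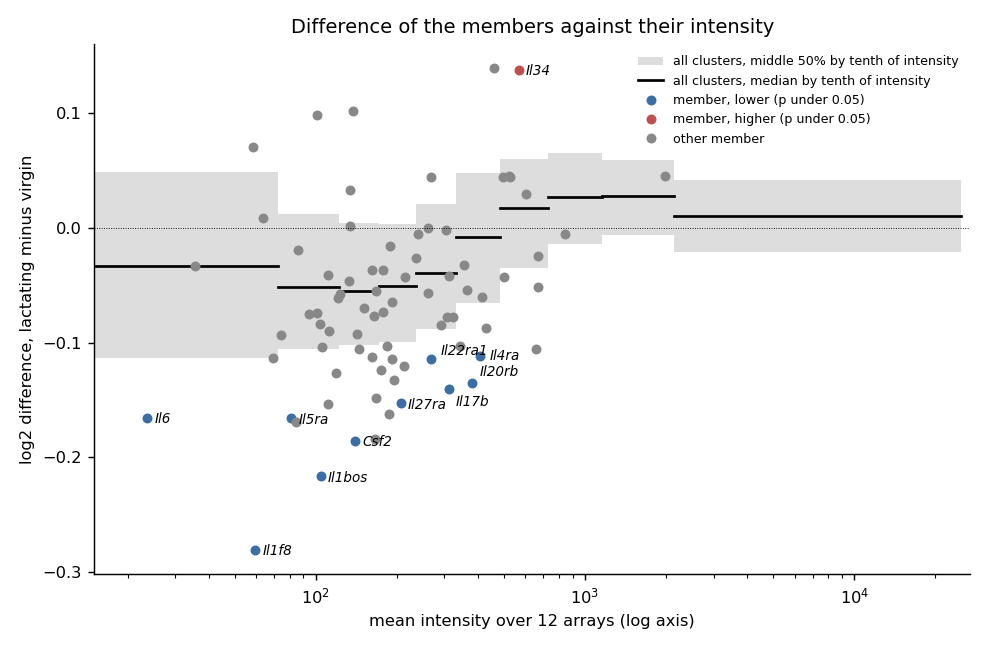
Log2 difference, lactating minus virgin (y axis), against mean intensity over 12 arrays (x axis, log scale) for the 79 genes as points, with the median and the middle 50% of all 35556 clusters in each of 10 intensity classes as black lines and grey bands. The black lines lie below zero at low intensity and above it at high intensity, and all 10 lower genes lie below the grey band.

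The mice within each group also differed. The mean deviation of the 79 members from their 12-array mean ran from -0.12 in lactating mouse 3 to 0.02 in lactating mouse 5, and from -0.05 in virgin mouse 3 to 0.11 in virgin mouse 2. All clusters at or below the median intensity deviated by -0.07 in lactating mouse 3 and by 0.07 in virgin mouse 2, while the signs were opposite in lactating mouse 2 (members -0.01, these clusters 0.01) and virgin mouse 4 (members -0.03, these clusters 0.01). The part of these arrays in the counts of lower members was not tested beyond leaving each out.

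**Figure D4:**
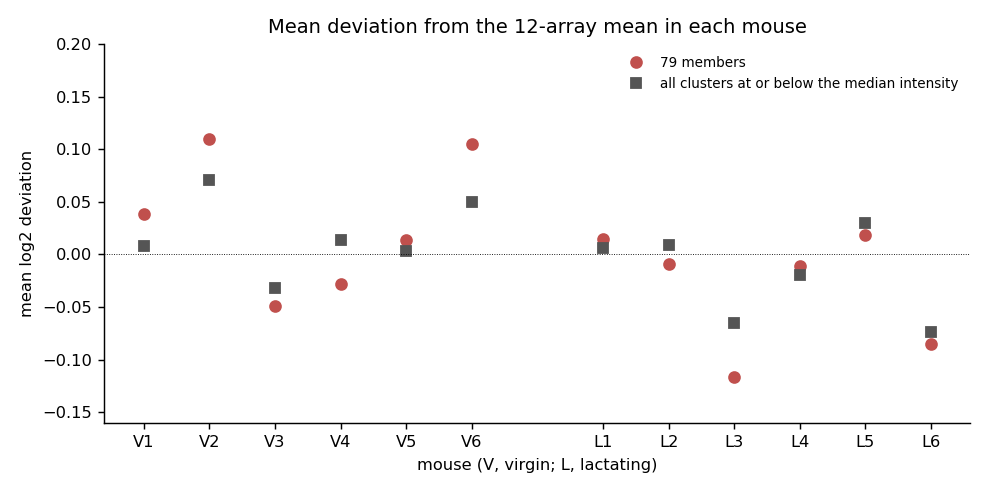
Mean log2 deviation from the 12-array mean (y axis) in each virgin (V) and lactating (L) mouse, for the 79 members (circles) and for all clusters at or below the median intensity (squares). Lactating mice 3 and 6 are lowest and virgin mice 2 and 6 highest in both measures, and the 2 groups overlap.

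Of the genes through which these receptors signal, 46 of 52 listed partners were measured, and 4 were higher and 1 lower. By the same rule 3.26% of all clusters were higher and 4.69% lower. Of the 46 partners 21 lay at or below the median intensity, and above it 4.92% of all clusters were higher. The inhibitors Cish (0.17, exact P = 0.00216), Socs2 (0.28, exact P = 0.0108) and Socs7 (0.12, exact P = 0.0152) of the SOCS family, which cytokine receptors induce and which shut them off, were higher, while Socs1 (-0.07, exact P = 0.331) and Socs3 (-0.05, exact P = 0.435) did not pass. Cish is among the genes that the study listed on these same arrays, so its difference is not independent of that choice. Stat5a was lower (-0.14, exact P = 0.0152) and Lifr, the receptor of leukemia inhibitory factor, higher (0.14, limma P = 0.0434, exact P = 0.0584). The related Stat5b had a positive difference that did not pass the threshold (0.08, limma P = 0.0843, exact P = 0.0476). On linear intensities Stat5b had a limma P of 0.0435. None of the 13 measured genes of IL-1 and IL-17 receptor signaling passed. The lower partners were 2 without lactating mouse 2 or 4, and 5 without virgin mouse 3, when 4.87%, 3.72% and 7.31% of all clusters were lower.

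Of 34 measured markers of immune cells, 9 were lower and none was higher. By the same rule 4.69% of all clusters were lower and 3.26% higher, and 7.19% of those at or below the median intensity were lower. Of 11 measured microglia and macrophage markers, Cx3cr1 (-0.11, limma P = 0.0482, exact P = 0.00216) and P2ry12 (-0.12, exact P = 0.00866) were lower. For Cx3cr1, virgin mouse 6 had 1013 and the other virgin mice had at most 868. P2ry12 is among the genes that the study listed on these same arrays, so its difference is not independent of that choice. Tmem119 (0.05), Fcrls (0.05) and Aif1 (0.03) had positive differences and the remaining markers negative ones, none of which passed. The 11 markers' summed intensity ran from 6273 to 6665 in lactating and from 6217 to 9156 in virgin mice. The highest sum belonged to virgin mouse 6, and the other virgin mice had at most 6601. Of 23 markers of T cells, B cells, mast cells and neutrophils, 7 were lower (Cd3e, Cd4, Cd8a, Cd79b, Ms4a1, Tpsb2 and S100a9). The summed intensity of the 23 ran from 3990 to 4517 in lactating and from 4318 to 4897 in virgin mice. Cd3d (0.02), Pax5 (0.04) and Kit (0.01) had positive differences and the remaining markers negative ones, none of which passed. The 9 lower markers of both sets became 5 with each array's median subtracted and 4 without lactating mouse 3. In these settings 2.79% and 3.04% of all clusters were lower. The lower markers were 5 without any one of lactating mouse 6 or virgin mice 1, 2 or 6. The shares of all clusters were then 3.18%, 3.95%, 2.96% and 3.28%. Of the 23 markers 20 lay at or below the median intensity. No marker of endothelium, astrocytes or oligodendrocytes passed the threshold. The part of the immune markers in the differences of the interleukin genes was not tested. Without virgin mouse 6, 7 members were lower, beside 3.28% of all clusters, and the groups of Csf2 and Il1f8 still did not overlap.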

How the data were processed

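Per the labels and the study's methods, RNA of 12 mice was hybridized to Affymetrix mouse gene arrays, and the authors derived 1 value per cluster with PLIER, corrected for background by GC content (Affymetrix Power Tools 1.12.0 in the submitters' processing notes). The deposited values are intensities on a linear scale, with array medians between 320 and 339. The genome build of the array annotation is not given in the sources used here.

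The log2 of each intensity plus 16 was taken, and lactating and virgin mice were compared with limma 3.58.1 (lmFit, eBayes, two-sided) in R 4.3.3 over all 35556 clusters. The exact permutation test used all 924 assignments of 6 against 6 mice. Groups came from the sample titles. The labels give the arrays as biological replicates, 1 mouse each. RNA was extracted in matched pairs, but the pairs are not named, so no pairing was used. The members and lists were chosen with earlier results of these data known. Genes named were those with an unadjusted P under 0.05 on log2 or linear intensities, the 2 brightest of each role, Csf1, Csf2, Csf3, Il1b, Il6, Il10, Il33 and Il34, and listed partners and markers past that threshold. Other genes were named after their values were seen. The limma step was checked on simulated data. Alternatives were linear intensities, added values of 1 and 64, clusters above the median intensity or with 1 symbol, quantile, median and cyclic loess normalization, a variance trend, array weights, a replicate block, the mean of a gene's clusters, and each array left out. All 79 symbols were found in RefSeq, whose promoter table (GRCm38.p6) held 61 of them.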

Additional observations from a re-analysis of the deposited data

Results flagged for a closer look

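In 4 of 72 groups of 6 mice examined, 1 mouse stood apart from the other 5, and chance alone sets 1 in 20 such groups apart. The groups were the 36 members named by rule, each in lactating and in virgin mice. Other members named in the text, Il10ra and Il1a among them, were not examined. Csf3 was lowest in virgin mouse 3, at 121.7, where the next virgin mouse had 134. Il10rb was highest in virgin mouse 6, at 580.1 (next 512.6). Il13ra1 was highest in lactating mouse 1, at 751.8 (next 669.4). Il1rapl1 was lowest in the same lactating mouse, at 455.9 (next 530.3). None of these 4 genes differed between the groups at an unadjusted P under 0.05.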

How the results depend on the processing

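Across 24 alternatives the median difference of the members stayed negative. The number of higher members was 1, and it was 3 with each array's median subtracted, 2 with array weights, 3 with cyclic loess, 2 with quantile normalization and 0 to 2 with single mice left out. The number of lower members was 10, and it was 2 when only the clusters above the median intensity, 19 members among them, were tested, and 6 to 17 with single mice left out. The members without overlap were 2, then 0 above the median intensity, where neither Csf2 nor Il1f8 was tested. With single mice left out they were 2 to 4, 4 being reached without lactating mouse 4. The share of all clusters without overlap was not counted there. The calls of Csf2, Il1f8, Il27ra and Il1bos held in all 23 alternatives that could test them, with an unadjusted limma P of at most 0.0415. The stricter threshold of 0.0025 was not passed throughout by Il1f8 and Csf2. Il1f8 had a limma P of 0.00791 on linear intensities and 0.00256 with the replicate block. The highest limma P of Csf2 over the alternatives was 0.00254. Il22ra1 lost its call in 11, Il34 in 9 and Il5ra in 7, and the causes were not tested. No result that passed the threshold changed direction. With the replicate number as a block, 12 members were lower and 1 higher (Il1rap), beside 5.72% and 3.26% of all clusters, Il34 and Il6 lost their calls, and Il3ra, Il18rap and Il20ra passed. Pairs of a lactating and a virgin mouse with the same number had residual correlations from -0.027 to 0.25, over 0.1 in 2 of 6 pairs, so the numbers were not taken to pair the mice. Dim signals and 6 mice a group limit what can be seen.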
